A study of Mus musculus with 46 samples.

Results

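A set of 10 classical target genes of the transcription factor p53 were followed across sorted mouse microglia, the resident macrophages of the brain. They were picked by symbol: Cdkn1a, Ccng1, Mdm2, Bax, Bbc3, Pmaip1, Trp53inp1, Phlda3, Sesn2 and Ephx1. All 10 of the 10 symbols were listed in each of 4 deposited tables, of 19762 genes in the adult table and 24421 genes in each of the other tables. The study removed Dicer, the enzyme that cuts precursor RNAs into mature microRNAs, from developing or adult microglia, and asked how its loss bears on their proliferation and their inflammatory response.

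The 46 libraries form these groups. Newborn (P0) microglia came from Cx3cr1Cre:Dicerfl/fl mice (2 libraries) and from Dicerfl/fl controls, for which no Cre is named (3 libraries in the labelled newborn comparison). Adult microglia of 10 to 12 weeks came from Cx3cr1CreER:Dicerfl/- mice (3 libraries) and Cx3cr1CreER:Dicer+/- controls (4 libraries), so the adult controls also carry the inducible Cre and have already lost 1 Dicer allele. The same 2 adult genotypes were sampled 6 h after 1 mg/kg of intraperitoneal lipopolysaccharide (LPS), a bacterial cell-wall product, and at steady state, from total brain (4 and 4 libraries after LPS, 3 and 3 at steady state, Dicer-deficient before control) and from hippocampus (2 and 2 after LPS, 3 and 2 at steady state). The steady-state total brain libraries are also labelled PBS, so their animals may have received that vehicle. The series text gives both adult genotypes as Cx3cr1CreER:Dicer+/- and counts 3 Dicer-deficient LPS libraries of total brain; the labels of the single libraries, followed here, give Dicerfl/- and 4. Stages were compared in Dicerfl/fl controls at embryonic day 14 (E14, 4 libraries), at P0 (5 libraries) and at 6 to 8 weeks (5 libraries). Cells were sorted as CD45int CD11b+ F4/80+ Ly6C- Ly6G- or, at E14, as CD45+ CD11b+ F4/80hi Ly6C- Ly6G-. In both Cre lines the Cx3cr1 promoter drives Cre, which acts in other macrophages as well as in microglia, and the time of tamoxifen dosing of the inducible line is not given in the sources used here.

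p53 is held at a low level by Mdm2, a ubiquitin ligase that p53 itself induces, so the 2 proteins form a feedback loop. DNA damage and other stresses free p53 from Mdm2, and p53 then binds paired decamers near its target genes. Its targets halt the cell cycle (Cdkn1a, which encodes the cyclin-dependent kinase inhibitor p21, and Ccng1, a cyclin that takes part in the Mdm2 loop) or promote apoptosis (Bax, which permeabilizes mitochondria, and the BH3-only proteins PUMA and NOXA from Bbc3 and Pmaip1). Others tune stress and metabolism: Trp53inp1 encodes a stress protein that acts with p53 and in autophagy, Phlda3 a repressor of Akt signalling, Sesn2 a sestrin that restrains mTORC1, and Ephx1 the microsomal epoxide hydrolase. Several of these genes also answer to other factors, and Cdkn1a, Pmaip1 and Sesn2 can be induced without p53.

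The p53 decamer consensus was searched in RefSeq promoter windows (GRCm38.p6, 250 bases before to 50 bases after each annotated start, on both strands, which give the same matches because the consensus is its own reverse complement). RefSeq windows were found for 8 of the 10 genes, 11 windows in all; Pmaip1 and Trp53inp1 had none. An exact decamer was present in 4 of these 11 windows, from 4 genes, and in 2745 of all 32851 windows (8.36%). The matches fell in genes that limma called in some comparison (Cdkn1a, Bax, Ccng1) and in 1 that it called in none (Mdm2). The windows of Ephx1, Phlda3 and Bbc3, which were also called in some comparison, held no match, nor did that of Sesn2. A link between motif and change was not tested. Capitals mark the decamers, and a match is a description of the letters and not a site shown to be bound.
Cdkn1a, chr17:29090903-29090962, plus strand: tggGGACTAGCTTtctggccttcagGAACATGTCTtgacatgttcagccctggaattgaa
Bax, chr7:45467065-45467124, minus strand: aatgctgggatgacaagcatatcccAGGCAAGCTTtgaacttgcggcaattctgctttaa
Mdm2, chr10:117710910-117710969, minus strand: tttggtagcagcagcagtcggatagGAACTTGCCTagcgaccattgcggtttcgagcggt
Ccng1, chr11:40755437-40755496, minus strand: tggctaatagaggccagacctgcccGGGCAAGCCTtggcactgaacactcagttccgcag
In Cdkn1a the second capital decamer is followed directly by 10 bases that fit the consensus at 9 of 10 positions, which makes a nearly complete pair. It lies 51 bases before 1 annotated Cdkn1a start and 2841 bases before the other annotated start, whose own window held no match. The deposited values carry no positions and were made on the build mm9, so they were joined to these sequences by symbol alone.

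Values are normalized read counts per gene, and depth was 898451 to 4573063 reads per library. Each table was scaled on its own, so levels are compared only within a table, and levels are not compared between genes because they are not corrected for transcript length. All 8 microglia markers (among them P2ry12, Tmem119 and Cx3cr1) were above 0 in every group. Dicer1 itself had 195 and 85.4 normalized reads in newborn Dicer-deficient libraries, against 57.8 to 88.7 in the 3 controls, and was not called between genotypes in any of the 6 comparisons; reads from poly(A) capture can fall outside the exons that Cre removes, so its level does not check the deletion. The labels do not say whether libraries came from separate animals, so p-values measure the spread between libraries, which may be technical. Some libraries stood apart. Total brain control LPS library 33 was near the steady-state libraries in its summed microglia marker level. The level was 76082, against 38758 to 47927 in the other 3 control LPS libraries and 82015 to 83453 in the steady-state controls. Its neutrophil and monocyte marker sum was unlike theirs, at 3844 against 10 to 38. Cx3cr1 was at 647 in newborn Dicer-deficient library 1, against 3129 in library 2 and 4244 to 5801 in the 3 controls. It was at 688 in hippocampal steady-state control library 1, against 7139 in control library 2. Among developmental adult controls it was 7454 and 8687 in libraries 1 and 3 but 490, 1188 and 940 in libraries 2, 4 and 5. In total brain Dicer-deficient steady-state library 11b it was 2487, against 5575 and 5330 in libraries 5 and 12. Summed neutrophil and monocyte markers reached 7595 to 7758 in the hippocampal Dicer-deficient steady-state libraries, against 524 and 2521 in the controls.

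**Figure D1:**
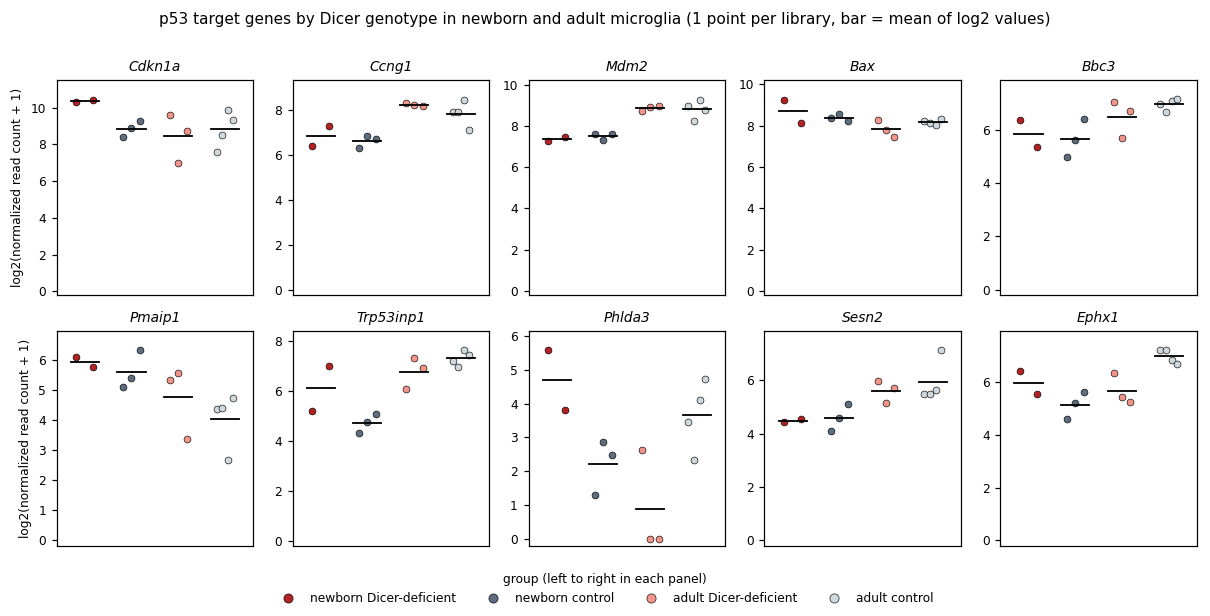
Each panel plots 1 gene, with log2(normalized read count + 1) on the vertical axis and, from left to right, newborn Dicer-deficient, newborn control, adult Dicer-deficient and adult control microglia; each point is 1 library and each bar the mean of the log2 values. Newborn and adult values come from tables scaled separately. Cdkn1a, Trp53inp1 and Phlda3 lie higher in both newborn Dicer-deficient libraries than in any of the 3 newborn controls, and Ephx1 lies lower in all 3 adult Dicer-deficient libraries than in any of the 4 adult controls.

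In newborn microglia, loss of Dicer went with a higher level of Cdkn1a, the main p53 target that arrests the cell cycle, while Mdm2, Ccng1, Bax, Bbc3, Pmaip1 and Sesn2 overlapped between genotypes. Phlda3 and Trp53inp1 were also higher in both Dicer-deficient libraries than in every control, without passing limma's test. Cdkn1a stood at 1279 and 1378 normalized reads in the Dicer-deficient libraries, against 342, 465 and 607 in the controls. Both Dicer-deficient libraries stood well above the highest control. The log2 fold change on log2(value + 1) was 1.53 ± 0.31 (SE), and limma gave an adjusted p of 0.0429 over all genes. Cdkn1a was thus 1 called gene of 10 (called: adjusted p under 0.05), beside 1.48% of the 13064 genes tested, and the median of the 10 log2 fold changes was 0.32, beside -0.06 over all genes. In sorted bulk cells, more RNA per cell and more cells of a type that expresses the gene cannot be told apart. No Cre is named for the newborn controls, so Dicer loss and the presence of Cre cannot be told apart here either.

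The call for Cdkn1a rested on few libraries. Its log2 fold change stayed between 1.32 and 1.73 when any 1 library was left out, but the limma adjusted p was 0.3 without control 1, 0.376 without control 2 and 0.14 without control 3, and it was 0.0756 with a pseudocount of 0.1. With all 5 P0 controls of the table, in which the remaining pair stood at 411 and 754, the fold change was 1.42 and the adjusted p 0.027. Immediate-early genes that tissue dissociation induces moved with Cdkn1a: their summed level was 25603 and 22882 in the Dicer-deficient libraries, against 7294, 12046 and 24210 in controls 1 to 3. In controls 1 to 5 the sums were 7294, 12046, 24210, 19173 and 30393, and Cdkn1a was at 342, 465, 607, 411 and 754. The part of dissociation in the difference was not tested. Erythroid markers summed to 12824 and 7294 in Dicer-deficient libraries and to 19647 to 22554 in controls.

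Among the other newborn targets, Phlda3 had 46.8 and 12.9 normalized reads in Dicer-deficient microglia, against 1.45, 6.22 and 4.56 in controls (18 and 11 reads, against 1, 10 and 6). Trp53inp1 had 36.4 and 128, against 18.9, 26.1 and 32.7. In both genes the Dicer-deficient pair lay above all controls but differed widely within itself. Their log2 fold changes were 2.48 ± 0.70 for Phlda3 (limma adjusted p = 0.106) and 1.40 ± 0.52 for Trp53inp1 (limma adjusted p = 0.177). Counting Cdkn1a, 3 of the 10 genes did not overlap between genotypes, as did 37.9% of all genes tested, so non-overlap is common with 2 libraries against 3. Phlda3 passed the threshold with all 5 P0 controls, at a log2 fold change of 2.13 and an adjusted p of 0.0295 (limma), and on recovered reads with edgeR and RLE scaling (0.0373) and DESeq2 (0.0329). Trp53inp1 passed with the same count tests, at an adjusted p of 0.0359 (edgeR, RLE scaling) and 0.0425 (DESeq2).

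The apoptosis genes showed no separation in the newborn. Bax stood at 616 and 281 normalized reads in Dicer-deficient libraries, against 333, 374 and 299 in controls, and Bbc3 at 80.6 and 39.8, against 30.5, 47.9 and 82.9. Pmaip1 had 67.6 and 53.8 in Dicer-deficient libraries and 33.4, 41.1 and 79.1 in controls. Dicer-deficient library 1 was high and library 2 within or below the controls for Bax, while for Bbc3 and Pmaip1 both lay within the control range. Mdm2, the negative regulator, had 151 and 174 in Dicer-deficient libraries, against 192, 159 and 196 in controls, with a log2 fold change of -0.16 ± 0.26 (limma adjusted p = 0.759). Ccng1 had 83.2 and 157, against 80.0, 114 and 106, and Sesn2 had 20.8 and 22.2, against 16, 23.0 and 33.4. Ephx1 had 85.8 and 45.6, against 23.3, 36.7 and 48.6, at a log2 fold change of 0.83 ± 0.43 (limma adjusted p = 0.293).

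Trp53 itself, the gene for p53, stood at 41.6 and 23.4 normalized reads in Dicer-deficient newborn microglia, against 72.7, 80.9 and 60.8 in the 3 controls. Both libraries were below these controls, although the remaining pair of P0 controls stood at 46.0 and 37.4, and the log2 fold change of -1.16 ± 0.36 did not pass the test (limma adjusted p = 0.133). Mdm4, a second inhibitor of p53, differed by -1.49 ± 0.47 (limma adjusted p = 0.135). Across 24 regulators of p53, 21 were tested and 0 were called by limma, beside 1.48% of all genes. Of these 21, 5 had an unadjusted p under 0.05, and edgeR and DESeq2 called 0. Limma also called 0 of 12 cell-division genes that p21 represses through the DREAM complex (such as Cdk1, Ccnb1, Mki67 and Top2a). Of the 12, 5 had an unadjusted p under 0.05, edgeR called 1, DESeq2 called 2, and the median log2 fold change was -0.53. The share of all genes at that unadjusted p was not taken, so no excess can be read from these counts.

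In adult microglia at steady state the picture was different: Cdkn1a varied widely within both genotypes, and the gene that passed the test was Ephx1, which was lower in Dicer-deficient cells. Ephx1 had 80.3, 42.5 and 37.1 normalized reads in Dicer-deficient libraries, against 148, 148, 113 and 103 in controls. No Dicer-deficient library reached the lowest control, a separation that 16.5% of all genes showed in either direction. Its log2 fold change was -1.31 ± 0.37 (limma adjusted p = 0.0487), which rested on 8 to 31 reads per Dicer-deficient library and 20 to 37 reads per control. That made 1 called gene of 10, beside 5.15% of the 11045 genes tested, and the median of the 10 fold changes was -0.35, beside 0.05 over all genes. The call was just inside the threshold: leaving out any 1 library other than Dicer-deficient library 1 moved the limma adjusted p to between 0.0714 and 0.128. Dissociation genes summed to 26878 to 29540 in Dicer-deficient libraries and to 42497 to 61602 in controls, and their part in the Ephx1 difference was not tested.

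Cdkn1a had 783, 124 and 422 normalized reads in adult Dicer-deficient libraries, against 193, 359, 924 and 627 in controls. Both groups spanned a wide range and overlapped almost fully, with a log2 fold change of -0.38 ± 0.50 (limma adjusted p = 0.759). Pmaip1 had 38.9, 46.3 and 9.27 in Dicer-deficient libraries, against 19.8, 19.9, 5.37 and 25.7 in controls (0.70 ± 0.75, limma adjusted p = 0.684). Phlda3 was near the limit of detection, at 5.18, 0 and 0 in Dicer-deficient libraries (2, 0 and 0 reads) and 9.9, 3.99, 16.1 and 25.7 in controls (2, 1, 3 and 5 reads). A count of 0 allowed up to 11.6 and 13.9 normalized reads in the 2 Dicer-deficient libraries without a read, so a difference could not be read at this depth. The remaining 6 genes overlapped between genotypes, with log2 fold changes between -0.53 for Trp53inp1 and 0.39 for Ccng1. Mdm2 had 415, 483 and 505 in Dicer-deficient libraries, against 495, 299, 618 and 437 in controls.

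Steady-state libraries of the LPS experiment gave another view of adult Dicer loss, in total brain and in hippocampus, and in both regions Pmaip1 was the gene of the 10 with the largest fold change. In total brain, Pmaip1 had 13.5, 28.1 and 15.2 normalized reads in Dicer-deficient libraries, against 1.9, 8.4 and 3.4 in controls. All 3 Dicer-deficient libraries lay above all 3 controls, a separation in either direction that 22.8% of all genes showed, and the log2 fold change was 1.94 ± 0.51 (limma adjusted p = 0.0556). In hippocampus it had 86.7, 43.0 and 87.5 in Dicer-deficient libraries, against 2.06 and 0.783 in controls, which is 82, 69 and 108 reads against 3 and 1. The hippocampal groups were far apart (24.2% of all genes did not overlap there), at a log2 fold change of 4.90 ± 1.04 (limma adjusted p = 0.087). Limma called 0 of the 10 genes in total brain, beside 2.18% of all genes, and 0 in hippocampus, beside 0.17%; Pmaip1 was in both the 1 gene with an unadjusted p under 0.05, edgeR also called 0, and DESeq2 called Pmaip1 alone in both regions.

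Neutrophil and monocyte markers moved with hippocampal Pmaip1. Their 12 genes summed to 7758, 7595 and 7635 in the Dicer-deficient libraries and to 524 and 2521 in the controls, with Retnlg at 0 in all 3 Dicer-deficient libraries. In total brain the sums were 22, 393 and 43 in Dicer-deficient libraries 5, 11b and 12, against 10, 38 and 13 in controls, and library 5, with the lowest Dicer-deficient sum, had a Pmaip1 level of 13.5, above every control. The part of these cells in the Pmaip1 difference was not tested. Ephx1 had 57.8, 52.0 and 30.5 normalized reads in total brain Dicer-deficient libraries, against 79.4, 69.8 and 75.8 in controls, again with every Dicer-deficient library below the controls, at -0.72 ± 0.35 (limma adjusted p = 0.333). In hippocampus it had 55.0, 72.3 and 34.8, against 118 and 55.6, and the groups overlapped. Cdkn1a differed by -0.20 ± 0.49 in total brain (limma adjusted p = 0.889) and by -0.48 ± 0.42 in hippocampus (limma adjusted p = 0.741). Sesn2 was at 0 in both hippocampal controls, which allowed up to 2.06 and 2.35, and at 0, 0 and 41.3 in Dicer-deficient libraries.

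**Figure D2:**
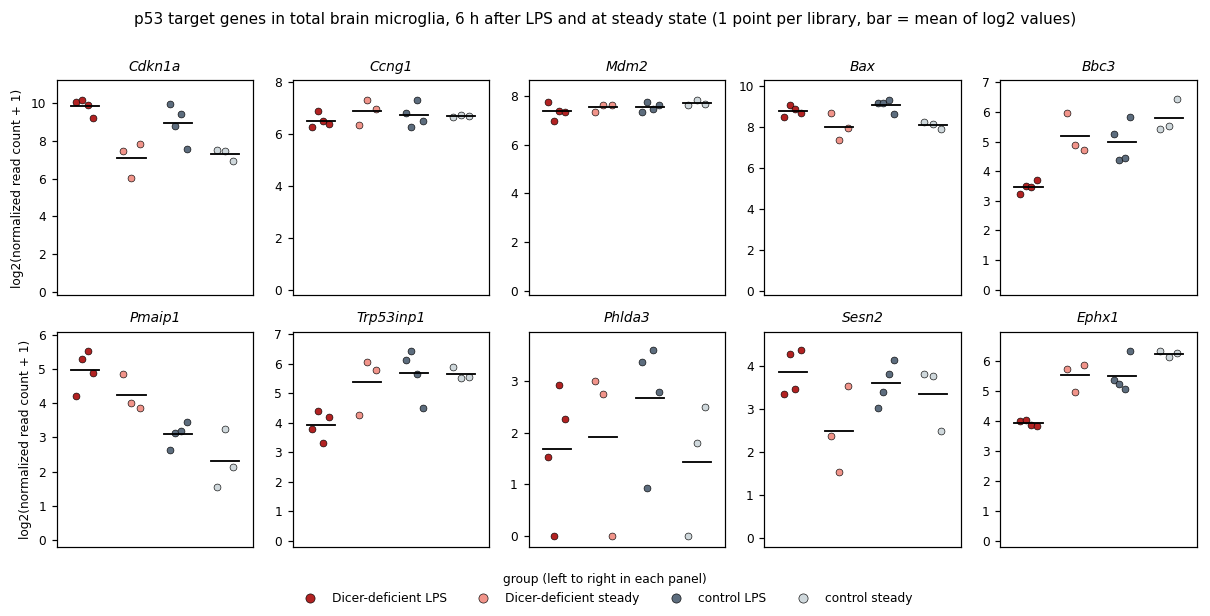
Each panel plots 1 gene in total brain microglia, with log2(normalized read count + 1) on the vertical axis and, from left to right, Dicer-deficient after LPS, Dicer-deficient at steady state, control after LPS and control at steady state; each point is 1 library and each bar the mean of the log2 values. After LPS the 4 Dicer-deficient libraries sit below all 4 controls for Bbc3, Trp53inp1 and Ephx1 and above all 4 for Pmaip1, and Cdkn1a is raised in both genotypes.

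At 6 h after LPS, total brain microglia differed between genotypes in 4 of the 10 genes, and these did not move in 1 direction. The NOXA gene Pmaip1 was higher in Dicer-deficient cells, whereas the PUMA gene Bbc3, Trp53inp1 and Ephx1 were lower. Pmaip1 had 17.6, 38.1, 45.5 and 28.4 normalized reads in Dicer-deficient libraries, against 5.2, 7.8, 8.1 and 9.9 in controls. Its lowest Dicer-deficient library was well above the highest control, at a log2 fold change of 1.88 ± 0.44 (limma adjusted p = 0.0123). The 4 calls stand beside 9.4% of the 12937 genes tested, and the median of the 10 fold changes was -0.25, beside -0.10 over all genes.

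Bbc3 had 8.3, 10.2, 10.1 and 12.0 normalized reads in Dicer-deficient libraries after LPS, against 37.1, 19.9, 20.6 and 56.5 in controls. Trp53inp1 had 13, 20.3, 8.9 and 17.5, against 69.1, 86.5, 50 and 21.8. Ephx1 had 14.8, 15.3, 13.6 and 13.1, against 40.2, 36.3, 32.3 and 80.2. Each gene separated the genotypes completely, as did 15% of all genes in either direction, and the Dicer-deficient libraries were tightly grouped for Bbc3 and Ephx1. Log2 fold changes were -1.51 ± 0.39 for Bbc3 (limma adjusted p = 0.0207), -1.76 ± 0.43 for Trp53inp1 (adjusted p = 0.017) and -1.57 ± 0.30 for Ephx1 (adjusted p = 0.0036).

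Control library 33, which resembled a steady-state library in its summed microglia markers only, was highest for Bbc3 and Ephx1 and lowest for Trp53inp1. Without it the log2 fold change was -1.22 for Bbc3 (limma adjusted p = 0.0517), -2.15 for Trp53inp1 (adjusted p = 0.00209), -1.29 for Ephx1 (adjusted p = 0.00684) and 2.00 for Pmaip1 (adjusted p = 0.0117). Bbc3 was also lost without control 17 (adjusted p = 0.0539), and Trp53inp1 without Dicer-deficient library 37 (0.0596) or control 17 (0.0514) or 31 (0.0577), all by limma. Ephx1 and Pmaip1 were called with any 1 library left out. Neutrophil and monocyte markers summed to 403 to 3481 in Dicer-deficient libraries and to 133 to 3844 in controls after LPS, and the highest control sum, 3844, was that of library 33; the other 3 controls had 133 to 604. Neuron markers summed to 31 to 37 in Dicer-deficient libraries and to 6 to 14 in controls. The part of either cell type in the differences between genotypes was not tested.

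The other 6 genes were not called between genotypes after LPS. Cdkn1a had 1066, 1177, 980 and 606 normalized reads in Dicer-deficient libraries, against 990, 449, 688 and 187 in controls, at a log2 fold change of 0.92 ± 0.43 (limma adjusted p = 0.194). The groups overlapped, and the low value of 187 was that of library 33. Bax had 361 to 533 in Dicer-deficient libraries and 392 to 645 in controls, Mdm2 126 to 216 and 163 to 213, and Ccng1 75.9 to 117 and 76.1 to 160. Phlda3 had 0 to 6.5 in Dicer-deficient libraries and 0.9 to 11 in controls, and Sesn2 9.3 to 19.7 and 7.2 to 16.8.

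The hippocampus after LPS had 2 libraries per genotype, and limma called 0 of the 10 genes, beside 0.307% of all genes; 2 had an unadjusted p under 0.05 (Ccng1 and Pmaip1), and edgeR and DESeq2 called 0. Pmaip1 stood at 50 and 24.2 normalized reads in Dicer-deficient libraries, against 1.63 and 6.98 in controls, the same order as in total brain, at 2.97 ± 1.14 (limma adjusted p = 0.458). Bbc3 had 2.78 and 11.4, against 30.2 and 38.1, at -2.35 ± 1.33 (limma adjusted p = 0.718). Ccng1 had 297 and 149 in Dicer-deficient libraries, against 98.7 and 85 in controls (1.19 ± 0.41, limma adjusted p = 0.369). The genotypes did not overlap for these 3 genes and for Bax, 4 of 10, beside 38.4% of all genes, and none of the differences passed the test. Ephx1 was at 25 and 12.1 in Dicer-deficient libraries, against 13.9 and 26.7 in controls, and Trp53inp1 at 58.3 and 19.5, against 115 and 6.35.

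After LPS, Cdkn1a rose in both genotypes in total brain and in Dicer-deficient hippocampal microglia. In control total brain microglia Cdkn1a had 990, 449, 688 and 187 normalized reads after LPS, against 182, 178 and 122 at steady state. In Dicer-deficient microglia it had 1066, 1177, 980 and 606 after LPS, against 227, 179 and 63.8. Within each genotype all LPS libraries were above all steady-state libraries, although library 33 only just. The log2 fold change was 1.62 ± 0.46 in controls (limma adjusted p = 0.0256) and 2.75 ± 0.46 in Dicer-deficient cells (adjusted p = 0.000337). Without library 33 the control value was 2.08 (limma adjusted p = 0.000414), while leaving out any other single control library took it to an adjusted p of 0.0577 to 0.109. Dissociation genes moved with LPS too, with sums of 9755 to 13123 after LPS and 4003 to 7734 at steady state in Dicer-deficient libraries, and of 10716 to 21771 and 7793 to 15538 in controls. Neutrophil and monocyte markers summed to 403 to 3481 after LPS and 22 to 393 at steady state in Dicer-deficient libraries, and to 133 to 3844 and 10 to 38 in controls. Erythroid markers summed to 2953 to 6960 and 84 to 448 in Dicer-deficient libraries, and to 300 to 12706 and 395 to 2386 in controls. The part of these genes and cells in the LPS differences was not tested.

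Bax, the pore-forming apoptosis gene, also rose in both genotypes of total brain. It had 574, 581, 645 and 392 normalized reads after LPS in controls, against 305, 285 and 238 at steady state, at a log2 fold change of 0.97 ± 0.25 (limma adjusted p = 0.0174). In Dicer-deficient cells it had 361, 533, 471 and 415 after LPS, against 243, 408 and 167, at 0.79 ± 0.25 (limma adjusted p = 0.0286). Control groups were separate, as for 21.2% of all genes, whereas the Dicer-deficient groups overlapped through steady-state library 11b at 408. The Bax calls rested on single libraries. In controls the limma adjusted p was 0.054 without library 31, 0.0593 without 32, 0.0509 without 8 and 0.0827 without 9, and 0.00206 without 33. In Dicer-deficient cells it was 0.0822 without library 36, 0.067 without 37, 0.0905 without 5 and 0.197 without 12. In controls these were the 2 called genes of 10, beside 14.1% of all 13423 genes tested. In Dicer-deficient cells 5 of 10 were called, beside 24.9% of all genes.

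The 3 further genes called in Dicer-deficient total brain microglia fell after LPS. Bbc3 had 8.3, 10.2, 10.1 and 12.0 normalized reads after LPS, against 25.1, 61.1 and 28.6 at steady state, at -1.71 ± 0.42 (limma adjusted p = 0.00602). Ephx1 had 14.8, 15.3, 13.6 and 13.1 after LPS, against 57.8, 52.0 and 30.5, at -1.60 ± 0.33 (adjusted p = 0.00161, limma). Trp53inp1 had 13, 20.3, 8.9 and 17.5 after LPS, against 54.0, 18.3 and 66.6, at -1.44 ± 0.47 (adjusted p = 0.0317, limma). Bbc3 and Ephx1 were separate between LPS and steady state, as were 32.4% of all genes, and Trp53inp1 overlapped through steady-state library 11b. Trp53inp1 lost its call without library 35 (limma adjusted p = 0.0599), 37 (0.0912), 5 (0.129) or 12 (0.164). In controls the same 3 genes were not called, at -0.81 ± 0.42 for Bbc3 (limma adjusted p = 0.214), -0.75 ± 0.33 for Ephx1 (0.14) and 0.04 ± 0.47 for Trp53inp1 (0.971); without library 33 Ephx1 was called in controls too, at -1.03 (limma adjusted p = 0.0165).

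Whether LPS acted differently in the 2 genotypes was tested as an interaction, the LPS effect in Dicer-deficient minus that in control microglia. Limma called 0 of the 10 genes in total brain, beside 0.171% of all genes, with 1 gene (Trp53inp1) at an unadjusted p under 0.05 and 0 called by edgeR or DESeq2. The estimate was 1.12 ± 0.65 for Cdkn1a (limma adjusted p = 0.637) and -1.48 ± 0.66 for Trp53inp1 (0.486), so a difference between the genotypes in the Cdkn1a response was not shown. In hippocampus 0 of 10 were called, beside 0.0162% of all genes, with 1 gene (Ccng1, 1.94 ± 0.56, limma adjusted p = 0.631) at an unadjusted p under 0.05 and 0 by edgeR or DESeq2.

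**Figure D3:**
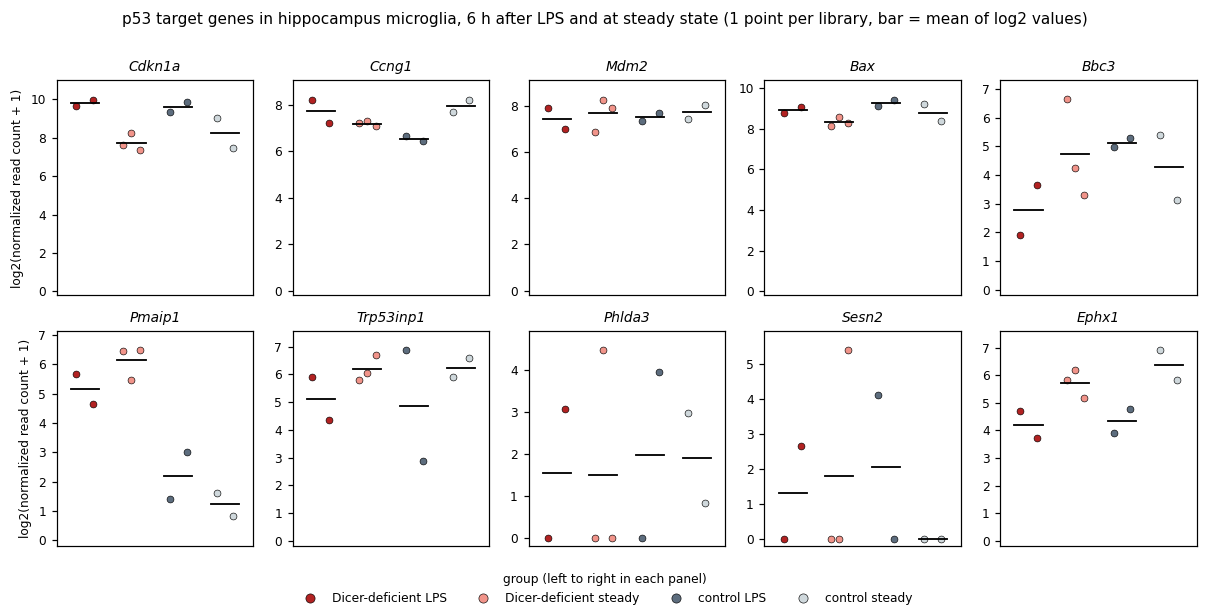
Each panel plots 1 gene in hippocampal microglia, with log2(normalized read count + 1) on the vertical axis and, from left to right, Dicer-deficient after LPS (2 libraries), Dicer-deficient at steady state (3), control after LPS (2) and control at steady state (2); bars are means of the log2 values. Cdkn1a is higher after LPS than at steady state in each genotype, and Pmaip1 is higher in all 5 Dicer-deficient libraries than in all 4 controls.

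In the hippocampus Cdkn1a was again higher after LPS in every library of its genotype, where 35.4% of all genes were separate in Dicer-deficient cells and 48.6% in controls. Dicer-deficient libraries had 798 and 1009 normalized reads after LPS, against 196, 305 and 164 at steady state, at a log2 fold change of 2.06 ± 0.42 (limma adjusted p = 0.00966). Controls had 643 and 940 after LPS, against 515 and 174 at steady state, at 1.37 ± 0.46 (limma adjusted p = 0.12). The steady-state control with 515 was library 1, the one with a low Cx3cr1 level; without it the control fold change was 2.16 (limma adjusted p = 0.0301). Dissociation genes summed to 16518 to 16683 after LPS and 5662 to 6413 at steady state in Dicer-deficient libraries, and to 15223 to 17077 and 5680 to 9011 in controls. Neutrophil and monocyte markers summed to 58 to 171 and 7595 to 7758 in Dicer-deficient libraries and to 17 to 1282 and 524 to 2521 in controls, and border macrophage markers to 14 to 31 and 319 to 459, and to 47 to 53 and 295 to 477. Their part in the hippocampal LPS differences was not tested. In Dicer-deficient cells the call was lost without LPS library 18 (limma adjusted p = 0.0632) or 20 (0.0999). Cdkn1a was the 1 called gene of 10 in Dicer-deficient hippocampus, beside 8.47% of all genes. In control hippocampus limma called 0 of 10, beside 5.23% of all genes, with 3 at an unadjusted p under 0.05 (Cdkn1a, Ccng1 and Ephx1), 0 called by edgeR and 1, Ccng1, by DESeq2.

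**Figure D4:**
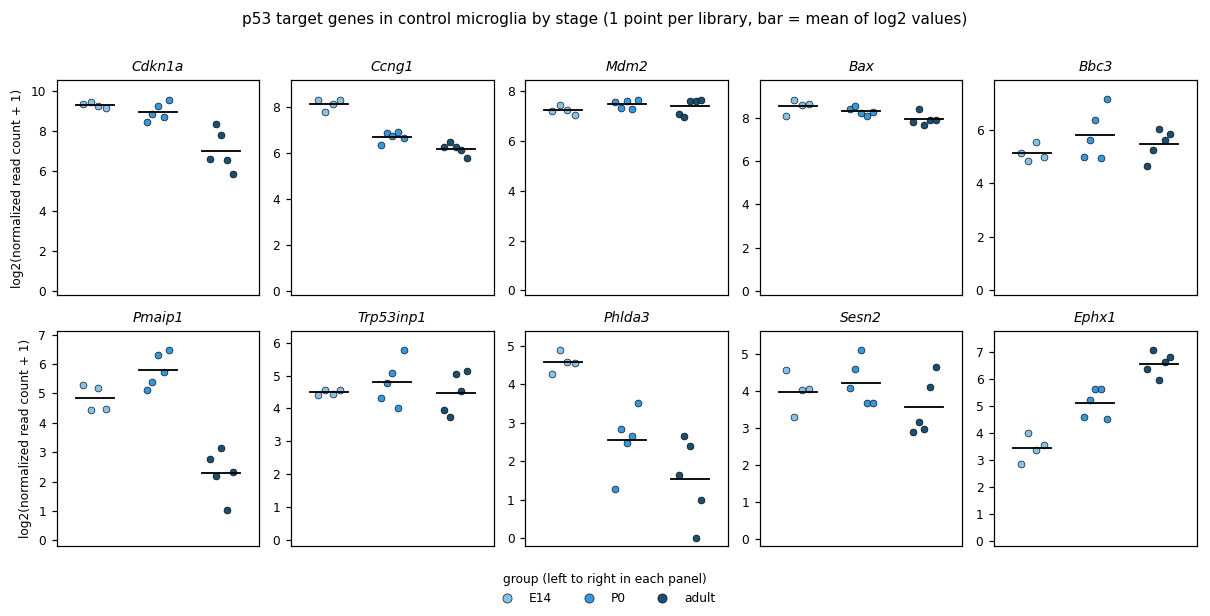
Each panel plots 1 gene in Dicerfl/fl control microglia at E14 (4 libraries), P0 (5) and adult (5), from left to right, with log2(normalized read count + 1) on the vertical axis; each point is 1 library and each bar the mean of the log2 values. Ephx1 climbs from stage to stage, Ccng1 and Phlda3 decline after E14, and Cdkn1a and Pmaip1 are lowest in the adult.

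Across stages of control microglia the genes that limma called did not share 1 course. The adults here, Dicerfl/fl of 6 to 8 weeks, differ in genotype, age and scaling from those of the adult Dicer comparison. Cdkn1a had 650, 683, 601 and 559 normalized reads at E14, 342, 465, 607, 411 and 754 at P0, and 95.5, 327, 218, 91.4 and 56.4 in the adult. The E14 libraries were tight, P0 overlapped them, and all adult libraries lay below both. Adult against P0 gave a log2 fold change of -1.94 ± 0.33 (limma adjusted p = 5.24e-05), and P0 against E14 gave -0.33 ± 0.35 (0.514). Pmaip1 had 38.5, 20.8, 35.1 and 21.3 at E14, 33.4, 41.1, 79.1, 51.9 and 87.6 at P0, and 5.74, 3.51, 7.77, 1.02 and 4.03 in the adult. Adult Pmaip1 was well below either earlier stage, at -3.52 ± 0.35 against P0 (limma adjusted p = 7.05e-08), which came to 1 to 9 reads per adult library.

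Ccng1 had 310, 215, 277 and 318 normalized reads at E14, 80.0, 114, 106, 119 and 99.3 at P0, and 75.4, 88.6, 74.2, 69.1 and 53.4 in the adult. Phlda3 had 18.3, 28.6, 22.8 and 22.4 at E14, 1.45, 6.22, 4.56, 5.31 and 10.5 at P0, and 2.15, 5.26, 4.31, 0 and 1.01 in the adult. Ephx1 ran the other way, with 6.31, 15.1, 9.49 and 10.9 at E14, 23.3, 36.7, 48.6, 48.4 and 22.2 at P0, and 83.3, 134, 61.3, 99.5 and 114 in the adult. For Ephx1 the 3 stages did not overlap at all, and for Ccng1 and Phlda3 E14 stood above both later stages. Over all genes, 25.3% did not overlap between P0 and E14, 32.2% between adult and P0 and 45.8% between adult and E14. P0 against E14 gave -1.42 ± 0.16 for Ccng1 (limma adjusted p = 3.94e-06), -2.01 ± 0.49 for Phlda3 (0.00439) and 1.67 ± 0.29 for Ephx1 (0.000266). Adult against P0 gave -0.52 ± 0.15 for Ccng1 (limma adjusted p = 0.0077), -1.02 ± 0.46 for Phlda3 (0.0722) and 1.46 ± 0.27 for Ephx1 (0.000142).

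Bax declined slightly, from means of 372 ± 76.5 at E14 and 315 ± 39.6 at P0 to 246 ± 53.3 normalized reads in the adult (SD, n = 4, 5 and 5), and adult against E14 gave -0.59 ± 0.16 (limma adjusted p = 0.00346). Adult against P0 gave -0.37 ± 0.15 for Bax (limma adjusted p = 0.046), a call lost in 8 of the 10 fits without 1 library and with edgeR or DESeq2. Mdm2 stayed between 125 and 203 over all 14 libraries, Bbc3 between 24.4 and 141, Sesn2 between 6.46 and 33.4, and Trp53inp1 between 12.3 and 53.7, and limma called none of these 4 between any pair of stages. For P0 against E14, Bbc3 was called by edgeR with TMM scaling (adjusted p = 0.0355) and by DESeq2 (0.0469), and limma called Sesn2 for adult against P0 without adult library 5 (0.0374). In all, 3 of 10 genes were called for P0 against E14, 5 for adult against P0 and 6 for adult against E14, beside 29.3%, 49.1% and 56.3% of all genes. These member counts are near the background shares, and the median of all genes was itself -0.11, -0.08 and -0.13. The 12 cell-division genes repressed by p21 were all lower in the adult than at P0, with a median log2 fold change of -4.76. Dissociation genes also followed stage, with sums of 616 to 1477 at E14, 7294 to 30393 at P0 and 8979 to 22180 in the adult. Markers of border macrophages summed to 482 to 753, 801 to 1101 and 22 to 81 at these stages, erythroid markers to 485 to 836, 11507 to 47775 and 41 to 1790, and neuron markers to 157 to 476, 45 to 84 and 6 to 15. The part of these in the stage differences was not tested.

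**Figure D5:**
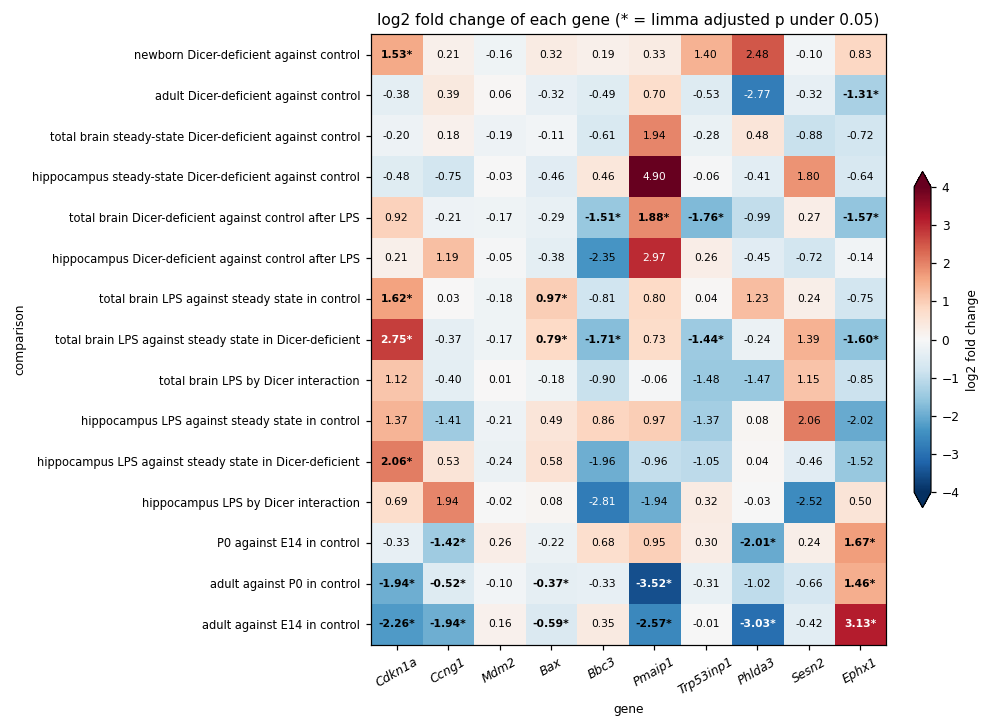
Log2 fold changes of the 10 genes (columns) in 15 comparisons (one per line), on a colour scale that ends at -4 and 4; an asterisk marks a limma adjusted p under 0.05. Cdkn1a is marked in the newborn comparison, in 3 of the 4 LPS comparisons and in both adult stage comparisons, and Mdm2 is marked nowhere.

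Set side by side, several genes had different signs of the Dicer effect in newborn and adult. The tables were scaled separately, and the difference itself was not tested. Cre lines and controls differ too. Newborn controls have no Cre named, while adult controls carry the inducible Cre and are already heterozygous for Dicer. Age and these differences in design cannot be told apart. The genotype and LPS comparisons of one region share libraries, as do the newborn comparison and the stages. The log2 fold change of Cdkn1a was 1.53 in newborn, -0.38 in adult, -0.20 in total brain and -0.48 in hippocampal steady-state microglia. Ephx1 gave 0.83, -1.31, -0.72 and -0.64 in the same order, and Pmaip1 gave 0.33, 0.70, 1.94 and 4.90. Mdm2 stayed between -0.19 and 0.06 in these 4 comparisons. It was called in none of the 15 comparisons, with limma adjusted p between 0.223 and 1.

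In a wider list of 40 genes linked to p53, chosen with earlier results of these data known, Perp stood out in its size of change. Perp, a p53 and p63 target that encodes a tetraspan membrane protein of cell junctions and apoptosis, had 104 and 80.8 normalized reads in newborn Dicer-deficient microglia, against 2.91, 8.09 and 4.56 in controls. Limma called Perp in the newborn at a log2 fold change of 3.99 ± 0.50 (adjusted p = 0.00474), which made 1 of 38 genes tested, beside 1.48% of all genes. In that comparison 10 of the 38 had an unadjusted p under 0.05, and edgeR and DESeq2 called 3 each. No share of all genes stands beside these counts, so no excess in the list can be read from them. Perp was also higher in Dicer-deficient cells of the adult table, at 3.30 ± 0.56 (limma adjusted p = 0.00193). The same held in total brain at steady state, at 4.38 ± 0.53 (limma adjusted p = 0.000311), and after LPS, at 3.20 ± 0.46 (0.000421). The hippocampal values were not called, at 5.71 ± 1.21 at steady state (limma adjusted p = 0.087) and 2.86 ± 1.33 after LPS (0.596). With LPS, Perp fell in Dicer-deficient total brain, at -1.86 ± 0.50 (limma adjusted p = 0.011), and had -0.69 ± 0.50 in controls (0.394). The interaction was not called (limma adjusted p = 0.66). Other genes of the list called by limma were Sulf2 (-2.37), Plk3 (-1.06) and Sesn1 (0.66) in the adult table, all log2 fold changes, and after LPS in total brain 5 rose and 1 fell of 37, beside 9.4% of all genes called, among them Cd82 (1.23), Tgfa (1.39) and Apaf1 (1.21), the apoptosome scaffold, which rose, and Dcxr (-1.18), which fell.

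LPS moved the wider list in both directions. In Dicer-deficient total brain 8 of 37 genes rose and 8 fell, by limma, such as Sertad1 (log2 fold change 1.68), Plk3 (1.61) and Tap1 (1.48) upward and Bcl2l11 (-1.82) and Sesn1 (-1.44) downward, and in controls 2 rose and 4 fell, beside 24.9% of all genes called in Dicer-deficient cells and 14.1% in controls. Of the p53 regulators, Atm (-1.47), Chek2 (-1.48) and Mdm4 (-0.64) were lower and Trp53bp1 (0.85) and Kat5 (0.65) higher in Dicer-deficient than in control total brain after LPS, which made 5 called by limma of 21 tested, beside 9.4% of all genes (log2 fold changes). Trp53 rose after LPS in Dicer-deficient total brain, with a log2 fold change of 0.89 ± 0.24 (limma adjusted p = 0.0109), and had 0.28 ± 0.24 in controls (0.479). The interaction was 0.61 ± 0.34 (limma adjusted p = 0.612), so a difference between genotypes in this response was not shown. At steady state Trp53 stood at 58.1 to 78 normalized reads in Dicer-deficient libraries and 103 to 128 in controls (limma adjusted p = 0.159). For Dicer loss at steady state limma called 0 of 19 regulators in the adult table. It called 0 of 21 in total brain and 0 of 20 in hippocampus. The shares of all genes called were 5.15%, 2.18% and 0.17% in the same order. Of the regulators, 0, 3 and 3 had an unadjusted p under 0.05, edgeR called 0 in each, and DESeq2 called 0, 0 and 1.

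The 3 genes whose levels ran most like Cdkn1a, by the mean Pearson r of log2 values over the total brain and developmental tables among 7704 genes, were Man2a1, Ccdc86 and Ehd1. Man2a1 had r = 0.932 over the 14 total brain libraries and 0.912 over the 16 developmental libraries, Ccdc86 had 0.932 and 0.866, and Ehd1 had 0.886 and 0.907. These correlations are descriptive, since libraries within a group share treatment, stage and scaling.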

How the data were processed

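Bulk RNA-seq of 46 libraries was read from 4 tables of normalized read counts (a signal scaled per library) that the authors deposited; RNA was captured on oligo(dT) beads, per the labels' protocols. The submitters' processing notes name bcl2fastq, HISAT 0.1.5, SAMtools, HOMER, DESeq2 and the build mm9, with no order or role; annotation, scaling and any handling of molecular identifiers are not given in the sources used here. Values were whole multiples of 1 read for at least 99.94% of genes per library (within 0.1 read, 560156 values above 0), so reads and depth were recovered: 898451 to 1991621 reads in adult, 2244169 to 4573063 in total brain, 1817611 to 4143142 in hippocampal and 992317 to 3460338 in developmental libraries. Limits for a count of 0 are 3 reads and cover counting error only.

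Because the values are normalized, log2(value + 1) was fitted in limma 3.58.1 (R 4.3.3) over every gene that reached a value of 1 in enough libraries to fill the smallest group, and calls are Benjamini-Hochberg adjusted p under 0.05. Total brain and hippocampal comparisons used 1 fit of all 4 groups of their table, the stage comparisons 1 fit of the 14 controls, and the adult and newborn comparisons only their own groups. Fits were tested on simulated data. Alternatives were other pseudocounts, no filter, fewer or more groups, a replicate block, each library left out, and edgeR 4.0.16 (TMM or RLE) and DESeq2 1.42.0 on recovered reads. The text names all 10 genes, Trp53, Mdm4, up to 5 called genes with the smallest p per list and comparison, and the 3 genes most like Cdkn1a; Perp and Dicer1 are followed throughout. The 10 genes and all lists were chosen with earlier results of these data known. Counts at an unadjusted p under 0.05 have no share of all genes beside them, so no excess can be read from them.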

Additional observations from a re-analysis of the deposited data

Results flagged for a closer look

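In groups of 4 or 5 libraries, the highest or lowest library stood far from the others in 3 of 60 gene and group combinations. That is about what chance gives at 1 in 20. The 3 were Bax in developmental adult control library 2 (338 normalized reads), Sesn2 in adult control library 4 (139) and Ephx1 in total brain control LPS library 33 (80.2).

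In some genes every Dicer-deficient or LPS library lay above the mean of its control or steady-state group in one setting and below that mean in another; these differences were not tested. Phlda3 had a Dicer log2 fold change of 2.48 in newborn and -2.77 in adult microglia, the adult value resting on 0 to 2 reads against 1 to 5. Ephx1 had 0.83 in newborn, against -1.31 in the adult table, -0.72 in total brain and -0.64 in hippocampus. Cdkn1a had 1.53 in newborn and -0.48 in hippocampus. The newborn and adult comparisons also differ in Cre line and control genotype. For LPS, Bbc3 in controls had -0.81 in total brain and 0.86 in hippocampus. In Dicer-deficient cells Ccng1 had -0.37 and 0.53 and Sesn2 had 1.39 and -0.46 in the same order. The hippocampal Sesn2 value, with an SE of 1.70, compared 0 and 5.38 after LPS with 0, 0 and 41.3 at steady state.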

How the results depend on the processing

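The number of the 10 genes called moved with the processing where groups were small. For newborn Dicer loss it was 1, and became 0 with a pseudocount of 0.1, 2 with all 5 P0 controls, 3 with edgeR and RLE scaling, 3 with DESeq2, and 0 to 4 with 1 library left out. All-gene calls there were 194, against 2493 with 5 controls, 583 with the replicate block, 396 and 489 with edgeR (TMM and RLE), 569 with DESeq2, 108 with a pseudocount of 0.1, and 0 to 4716 with 1 library left out, the highest without Dicer-deficient library 2, which leaves 1 Dicer-deficient library assumed to vary like the controls. Newborn Bax reversed to -0.25 without Dicer-deficient library 1 (leave-one-out range -0.25 to 0.88). For adult Dicer loss 1 became 0 with a pseudocount of 0.1 or no filter, and 0 to 1 with 1 library left out. At steady state 0 became 1 with DESeq2 in total brain and in hippocampus (Pmaip1 in both), and 0 to 1 in total brain with 1 library left out. Leaving out 1 library gave 2 to 4 after LPS in total brain. It gave 0 to 3 for LPS in controls (1 with only the groups compared) and 3 to 5 for LPS in Dicer-deficient cells. For hippocampal LPS it gave 0 to 1 in either genotype, and DESeq2 gave 1 in controls. P0 against E14 gave 5, in place of 3, with edgeR and TMM scaling and with DESeq2. Deviations of same-numbered libraries from their group means had r of -0.20 to 0.09. With only 2 to 5 libraries per group, these values cannot show whether the numbers pair libraries. With the replicate block the newborn count was 2 and the adult count 0.

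Of 28 called values, 17 were called under every alternative run. They were Cdkn1a, Bbc3 and Ephx1 for LPS in Dicer-deficient total brain, Pmaip1 and Ephx1 for genotype after LPS there, and otherwise stage values. The stage comparisons called 29.3% to 56.3% of all genes. Newborn Cdkn1a and Ephx1 in the adult table, the calls for Dicer loss at steady state, were not among the 17. No share of all genes stands beside the 28 and the 17. The causes of lost calls were not tested. Depth limits Phlda3, Sesn2 and control Pmaip1, which often rest on fewer than 10 reads.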
